A study of Mus musculus with 12 samples.

Results

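Calcium cycling through the sarcoplasmic reticulum (SR) was read from 33 array probes of 9 genes, Ryr2, Atp2a2, Pln, Casq2, Casq1, Jph2, Hrc, Srl and Asph, in 12 mouse hearts. These are 9 of 19057 genes named on the array. The members were all probes whose platform gene symbol is one of these names, out of 45281 probes on the array. Of the 33, 30 were detected on every array of at least 1 group and were tested among 18370 such probes. The other 3 stayed dark on all 12 arrays: ILMN_1245870 of Ryr2, ILMN_1242459 of Atp2a2 and ILMN_2601196 of Asph. The study asked which transcripts differ when mouse hearts are made to express the expanded CUG repeat RNA behind DM1 (myotonic dystrophy).

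The SR is the calcium store of muscle cells. In each heartbeat the ryanodine receptor Ryr2 releases stored calcium to start contraction, and the pump SERCA2, encoded by Atp2a2, returns it while phospholamban (Pln) holds the pump back. Calsequestrins (Casq2 in the heart, Casq1 chiefly in skeletal muscle), Hrc and sarcalumenin (Srl) bind calcium inside the store. Junctophilin 2 (Jph2) ties the SR to the surface membrane, and Asph gives rise to several products, among them junctin, which sits at the release channel.

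All hearts carry the strain label FVB, and 1 array was run per heart. The uninduced hearts were 3 from MCM mice labelled untreated, 2 from adult wildtype mice and 1 from a wildtype embryo of day 14 (E14). The induced EpA960/MCM animals carry a transgene with expanded CUG repeats and the MCM transgene, a recombinase that tamoxifen activates in heart muscle. Tamoxifen, 20 mg/kg per injection, was given at an age of 2 to 4 months in 1 injection or in 5 on successive days. Of the induced hearts, 3 were taken at 72 h and 3 at 1 week. The labels do not say which schedule went with which time. The MCM hearts are labelled untreated and are named MCM, not EpA960/MCM. Tamoxifen exposure, the activated recombinase, carriage of the repeat transgene and repeat RNA therefore cannot be told apart. The labels call the model heart-specific, and the RNA is from heart tissue without separation of cell types. Ages of the MCM and adult wildtype mice are not given in the sources used here. No label says whether hearts of a group came from separate litters or days, so p-values measure the spread between these hearts.

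Between 14202 and 16774 of the 45281 probes were detected per array, and a member probe was read by 17 to 75 beads (median 39). The 1st percentile of signal, a measure of array background, was 54.4 to 59.1 on the 6 arrays of induced hearts and 63.0 to 76.2 on the other 6. Arrays of a group correlated across probes at 0.962 to 0.993, lowest among the 72 h hearts. Replicate 2 of that group stood apart for several members, and results that rest on it are given with and without it. As a check of the tissue, 11 cardiomyocyte markers had a tested probe, with a summed signal of 494400 to 525100 in MCM, 495100 to 510500 at 72 h, 393200 to 401900 at 1 week, 473300 to 484500 in adult wildtype and 269700 in E14 hearts. Levels below are log2 normalized signal, and a change is the difference of 2 group means on that scale ± its standard error. A change was called at an adjusted p below 0.05, from limma with Benjamini-Hochberg adjustment over all 18370 probes.

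The start regions of 4 members are shown because these genes fell together at 1 week by unequal amounts, and because Pln and Casq2 held the matches found to muscle factor motifs. Each run covers 250 bases before the annotated transcript start and 50 after it, 5′ to 3′ on the gene's strand, from RefSeq with build GRCm38.p6. Capitals mark matches to motifs of MEF2 (searched by name), the SRF CArG box (by name), the GATA factors (AGATAA), the MCAT element (CATTCC) and the nuclear receptor ERR (TNAAGGTCA), searched on both strands.
Pln, chr10:53337436-53337735, strand +: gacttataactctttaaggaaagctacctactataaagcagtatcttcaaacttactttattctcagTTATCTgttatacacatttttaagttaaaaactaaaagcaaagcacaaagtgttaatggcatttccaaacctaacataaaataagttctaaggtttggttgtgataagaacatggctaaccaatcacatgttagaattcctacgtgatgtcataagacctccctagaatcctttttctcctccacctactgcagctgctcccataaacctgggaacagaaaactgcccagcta
Casq2, chr3:102086165-102086464, strand +: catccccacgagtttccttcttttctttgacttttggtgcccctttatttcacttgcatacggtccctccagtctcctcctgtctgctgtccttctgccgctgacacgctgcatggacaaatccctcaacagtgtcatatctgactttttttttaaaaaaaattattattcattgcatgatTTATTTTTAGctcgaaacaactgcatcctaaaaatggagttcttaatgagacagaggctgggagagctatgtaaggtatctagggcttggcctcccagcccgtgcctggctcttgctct
Ryr2, chr13:12106896-12107195, strand -: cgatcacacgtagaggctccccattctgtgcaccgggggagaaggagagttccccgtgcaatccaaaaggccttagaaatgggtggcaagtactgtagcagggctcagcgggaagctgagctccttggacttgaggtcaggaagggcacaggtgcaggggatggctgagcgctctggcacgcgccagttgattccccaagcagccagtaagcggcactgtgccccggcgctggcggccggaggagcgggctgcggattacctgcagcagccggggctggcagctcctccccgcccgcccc
Hrc, chr7:45335019-45335318, strand +: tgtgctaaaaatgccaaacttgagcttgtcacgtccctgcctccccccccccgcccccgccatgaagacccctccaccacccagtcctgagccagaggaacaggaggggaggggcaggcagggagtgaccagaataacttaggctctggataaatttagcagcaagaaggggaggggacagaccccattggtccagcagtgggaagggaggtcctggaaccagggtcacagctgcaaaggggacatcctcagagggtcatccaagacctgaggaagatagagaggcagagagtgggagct
Windows were given for 6 of the 9 members, 7 windows in all. The MEF2 match of Casq2 lies at positions -69 to -60 from the start, and 3.19% of 32851 promoter windows hold such a match. The GATA match of Pln lies at -183 to -178, on the strand opposite to the gene, and 11.2% of windows hold one. A TATAAA run of Pln, not capitalised, lies at -219 to -214, and 13.6% of windows hold one. The windows of Ryr2, Hrc, Casq1 and Jph2 held none of the searched letters, and a CArG box, MCAT or ERR match, present in 1.63%, 14.7% and 1.28% of windows, was found in none of the 7.

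One week after induction, transcripts of all 9 genes were lower than in MCM hearts by at least 1 probe. Of the 30 probes 24 fell and none rose, where 27.9% of all tested probes fell and 24.9% rose. This count includes probes that missed detection on 1 week arrays and were kept through other groups, which favours falls. Among the 18 member probes detected on all 12 arrays 14 fell and none rose, where 56.7% of all such probes were called in either direction. Among probes detected in both groups the falls of an Asph probe, a Ryr2 probe and Pln were the largest. By the median over each gene's probes the fall was smallest for Casq1 (-0.42), the pump gene Atp2a2 (-0.46), Casq2 (-0.50) and Asph (-0.54). Of the 6 probes not called, 1 was of Atp2a2 and 5 were of Asph. The median change over the 30 probes was -0.76, or -0.67 with the 3 probes undetected at 1 week set at their bounds, against -0.03 over all tested probes, and 26 of the 30 had each 1 week heart below each MCM heart (33.1% of all probes). Whole-heart RNA cannot tell fewer muscle cells from less RNA per cell. Of the 11 cardiomyocyte markers 6 fell and none rose (median change -0.61), and 9 of 9 macrophage and leukocyte markers rose (median 2.19); their part in the members' changes was not tested.

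**Figure D1:**
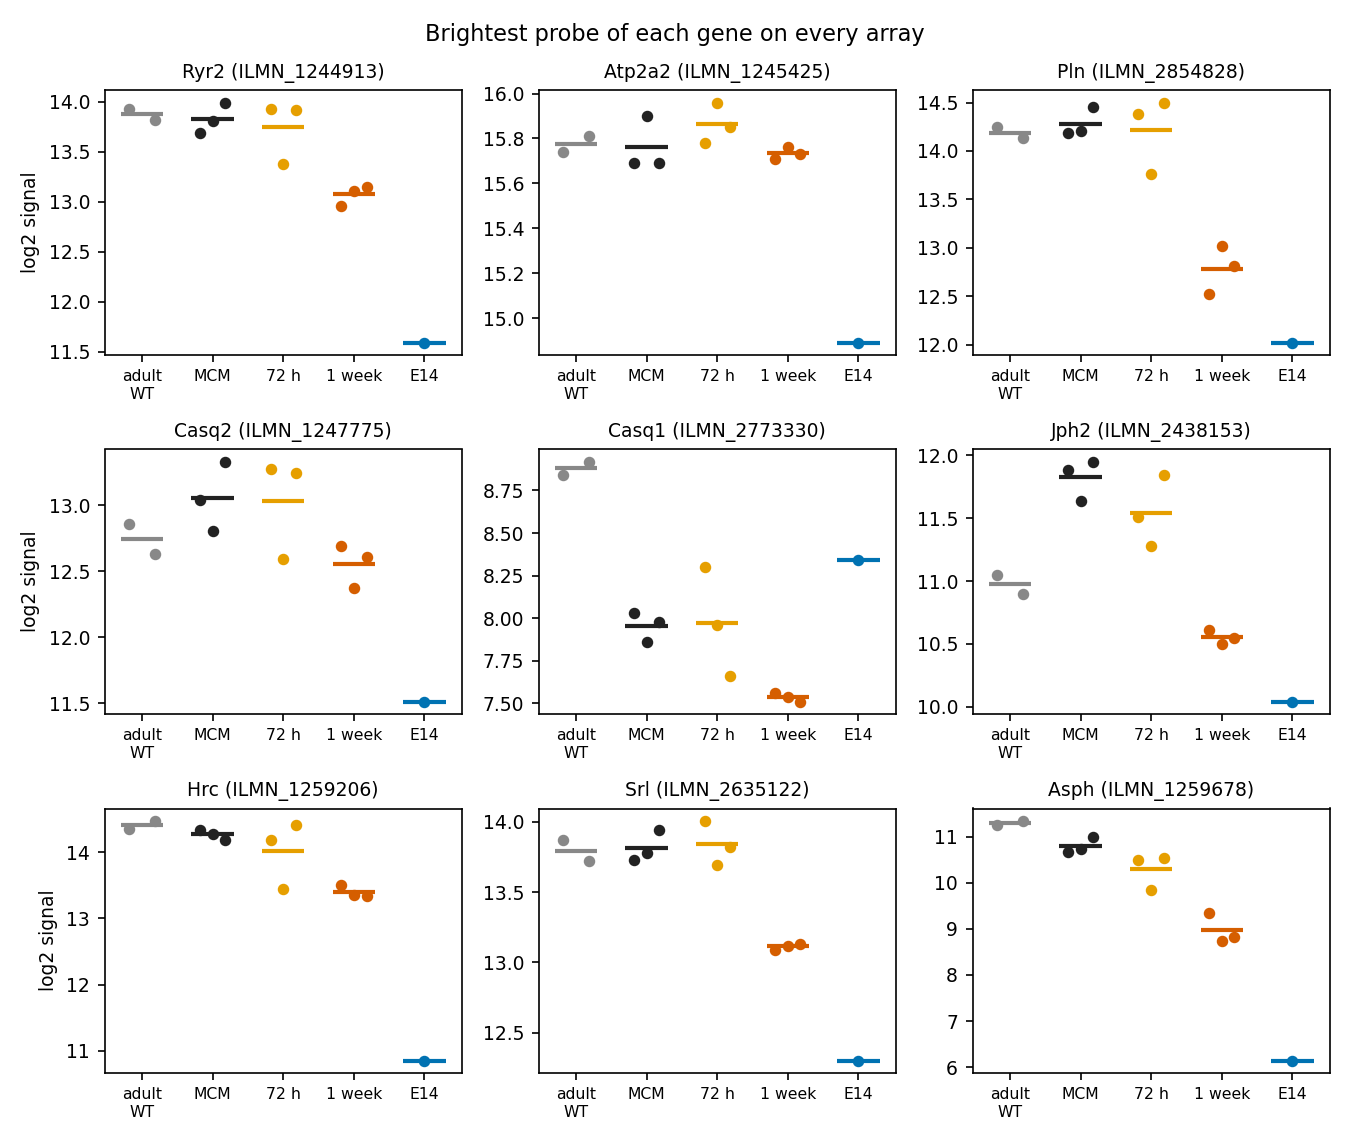
Log2 normalized signal of the probe with the highest mean for each gene on all 12 arrays, by group (points: hearts; lines: group means; the vertical scale differs between panels). The 1 week hearts lie below the MCM hearts in each panel except that of Atp2a2, and the E14 heart is the lowest except for Casq1.

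The release channel gene Ryr2 had 13.69, 13.81 and 13.99 in the MCM hearts and 12.96, 13.11 and 13.15 at 1 week by probe ILMN_1244913. The 2 groups did not overlap, and the fall was 0.76 ± 0.14, or 1.69-fold (adjusted p = 0.000731). Probe ILMN_1242706 had 8.97, 8.74 and 9.39 in MCM and 7.15, 7.01 and 7.46 at 1 week, a fall of 1.83 ± 0.26 (adjusted p = 0.000106). The 2 dimmest probes passed detection in MCM hearts and on no 1 week array, so their falls are bounds. These are at least 1.73-fold for ILMN_1244015 and at least 1.42-fold for ILMN_1251989. The tests of their fitted differences, which use undetected values, gave adjusted p = 1.74e-05 and 1.92e-05. The bounds themselves were not tested. The 2 probes detected in both groups fell by unequal amounts, with a difference of 1.07 ± 0.18 between their falls (adjusted p = 0.000688 over all pairs of probes). For ILMN_1244913 the levels of adult wildtype, MCM and 72 h hearts overlapped, the 1 week hearts came next, and the E14 heart was lowest at 11.59.

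The pump gene Atp2a2 was read by 3 probes that did not move alike. Probe ILMN_1245425 had 15.69, 15.90 and 15.69 in MCM and 15.71, 15.76 and 15.73 at 1 week, and its change was -0.03 ± 0.10 (95% interval -0.24 to 0.19, adjusted p = 0.844). Probe ILMN_1239742 had 15.85, 15.64 and 15.81 in MCM and 15.35, 15.24 and 15.33 at 1 week, a fall of 0.46 ± 0.10 (adjusted p = 0.00153). Probe ILMN_2450031 had 12.04, 12.15 and 12.12 in MCM and 11.65, 11.49 and 11.65 at 1 week, a fall of 0.50 ± 0.10 (adjusted p = 0.00156). Of the 3 pairs 2 changed unequally, those that set ILMN_1245425 against the others. Both brighter probes reached within 0.12 and 0.22 of the top of the normalized scale at 16.07, and the files carry no flag for saturation. All 3 probes were lowest in the E14 heart.

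Pln, whose product inhibits the pump, had 14.19, 14.21 and 14.45 in MCM and 12.52, 13.02 and 12.81 at 1 week. Every 1 week heart lay more than 1 log2 unit below every MCM heart, and the fall was 1.50 ± 0.18, or 2.83-fold (adjusted p = 3.08e-05). Adult wildtype hearts, at 14.25 and 14.13, overlapped the MCM hearts, and the E14 heart was lowest at 12.02. Set against the pump gene within each heart, the Pln change minus the Atp2a2 change by ILMN_1245425 was -1.48 at 1 week (exact two-sided permutation p = 0.1, the smallest that 3 against 3 hearts allow). With the other Atp2a2 probes it was -1.04 and -0.999. At 72 h the same difference was -0.18 (exact permutation p = 0.7), and with the other probes -0.07 and 0.38, so its sign at 72 h depended on the probe.

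Of the calcium-binding proteins of the store, Casq2 had 13.04, 12.80 and 13.33 in MCM and 12.69, 12.37 and 12.61 at 1 week, a fall of 0.50 ± 0.18 (adjusted p = 0.0340). The groups did not overlap, but the gap between the nearest hearts was small, and the call was lost when MCM replicate 1, MCM replicate 3, 1 week replicate 2 or 1 week replicate 3 was left out (adjusted p 0.0737, 0.142, 0.126 and 0.066). Casq1 had 8.03, 7.86 and 7.98 in MCM and 7.56, 7.54 and 7.51 at 1 week, a fall of 0.42 ± 0.16 (adjusted p = 0.0436). That call was lost when any MCM, 1 week or adult wildtype heart was left out (adjusted p 0.0556 to 0.117). Casq1 is the main calsequestrin of skeletal muscle, and of 6 fast skeletal muscle markers with a tested probe 2 fell at 1 week, with Myh4, Myh1 and Actn3 below the detection limit set for testing. Their summed signal was 1404 to 2302 in MCM, 1136 to 1356 at 1 week and 1930 to 1980 in adult wildtype hearts, and its part in the Casq1 values was not tested.

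Hrc, a histidine-rich calcium-binding protein of the SR lumen, had 14.34, 14.28 and 14.19 in MCM and 13.51, 13.36 and 13.34 at 1 week. The groups were far apart relative to their spread, with a fall of 0.86 ± 0.19, or 1.82-fold (adjusted p = 0.00217). Srl had 13.73, 13.78 and 13.94 in MCM and 13.09, 13.12 and 13.13 at 1 week by ILMN_2635122, a fall of 0.70 ± 0.10 (adjusted p = 0.000114). Its second probe, ILMN_2924619, had 12.46, 12.31 and 12.16 in MCM and 10.83, 10.97 and 11.09 at 1 week, a fall of 1.35 ± 0.12 (adjusted p = 5.22e-06). The change of that probe exceeded that of ILMN_2635122 by 0.64 (adjusted p over all probe pairs = 0.0162). The third, ILMN_2724048, was detected on 1 of 3 arrays at 1 week and fell by 0.76 ± 0.21 (adjusted p = 0.00988).

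At the junction with the surface membrane, Jph2 had 11.88, 11.64 and 11.95 in MCM and 10.61, 10.50 and 10.55 at 1 week by ILMN_2438153. Every 1 week heart lay more than 1 log2 unit below every MCM heart, with a fall of 1.27 ± 0.13, or 2.41-fold (adjusted p = 1.36e-05). The other 2 probes fell by 0.64 ± 0.18 (ILMN_2628875, adjusted p = 0.00945) and by 1.11 ± 0.21 (ILMN_2628876, adjusted p = 0.000950, detected on 2 of 3 arrays at 1 week). Of the 3 pairs of Jph2 probes 2 changed by unequal amounts.

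**Figure D2:**
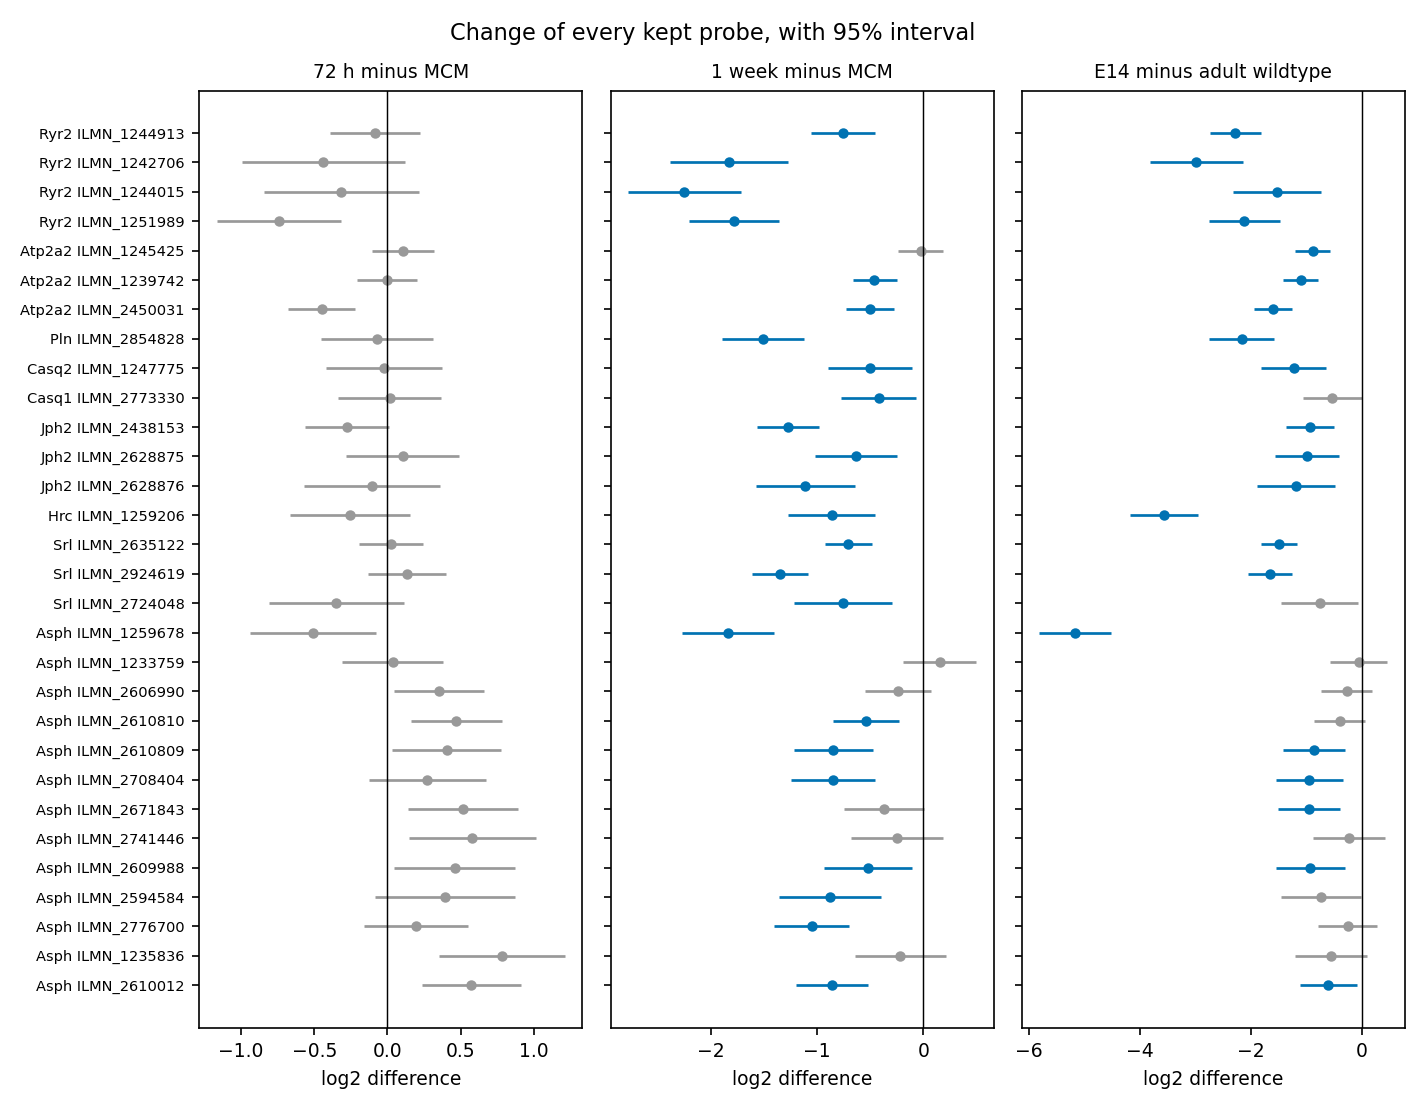
Change of each of the 30 tested probes (points) with its 95% interval (lines) at 72 h and 1 week against MCM and in the E14 heart against adult wildtype, on the log2 scale (blue: fell by the test; grey: not called; each panel has its own horizontal scale). None is called at 72 h, 24 fall at 1 week and 21 are lower in the E14 heart.

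Asph was read by 13 tested probes, and 8 of them fell at 1 week. Probe ILMN_1259678, which the platform annotates to transcript NM_133723, had 10.66, 10.73 and 11.00 in MCM and 9.35, 8.73 and 8.82 at 1 week. Its fall of 1.84 ± 0.20, or 3.57-fold (adjusted p = 1.73e-05), was the largest of the 13. The other 12, annotated to NM_023066, changed by -1.05 to 0.15, and 7 of them fell, 1 of which (ILMN_2610012) was detected on no 1 week array and fell at least 1.39-fold. ILMN_1233759, the brightest of the 12, had 9.83, 9.72 and 9.52 in MCM and 9.93, 9.77 and 9.83 at 1 week, a change of 0.15 ± 0.16 (adjusted p = 0.448).

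The NM_133723 probe differed in its change from each of the 11 others that were detected in both groups, by 0.79 to 1.99 (adjusted p 1.42e-05 to 0.0199). Among those 11 themselves 16 of 55 pairs differed. Over all members 33 of 76 pairs of probes of the same gene, both detected in both groups, changed unequally, where 29.4% of 5720 such pairs did. Which protein product each probe reports is not stated in the files.

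**Figure D3:**
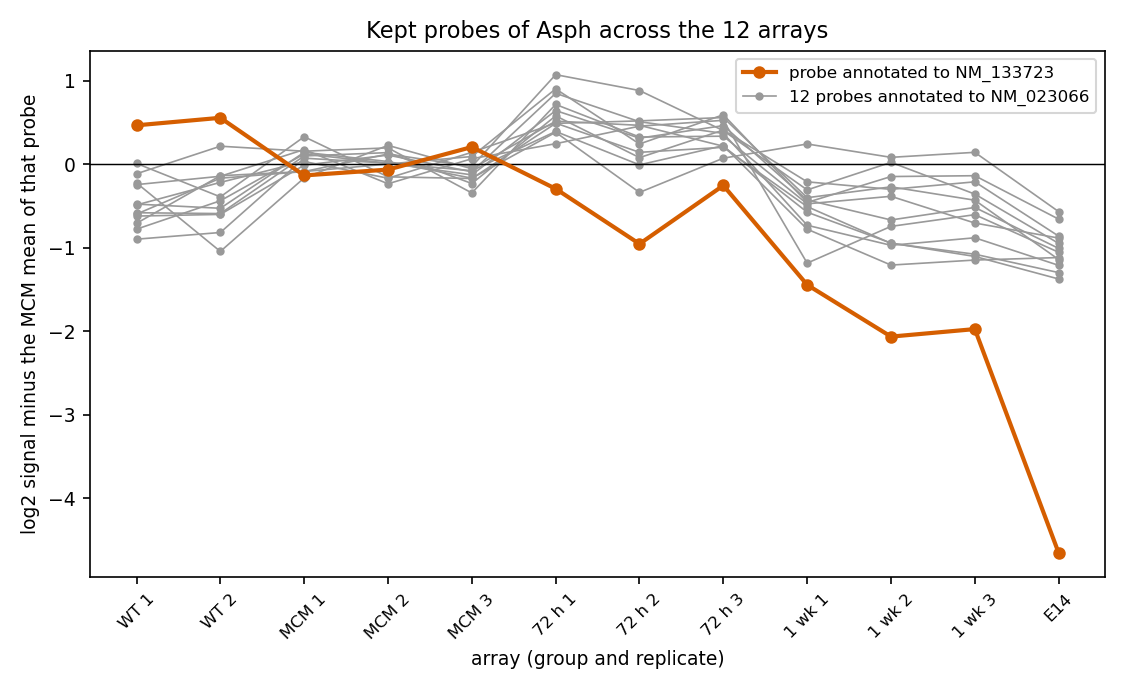
Log2 signal of the 13 tested Asph probes on each of the 12 arrays, minus that probe's MCM mean (orange: the probe annotated to NM_133723; grey: 12 probes annotated to NM_023066; lines join the values of a probe). The orange probe lies below all grey ones at 1 week and in the E14 heart, where it was not detected, and above them in the adult wildtype hearts.

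At 72 h no member probe was called by limma, where 0.229% of all tested probes were. By unadjusted p below 0.05, 11 of the 30 differed, 9 of them of Asph, where 7.64% of all tested probes did, and the smallest adjusted p was 0.198. Pln had 14.38, 13.76 and 14.50 at 72 h, Ryr2 (ILMN_1244913) 13.93, 13.38 and 13.92, Casq2 13.27, 12.59 and 13.24, and Hrc 14.19, 13.44 and 14.41. In each of these 4 genes replicate 2 was the low heart and lay below all MCM hearts, while the others of its group lay within or near the MCM range. Without replicate 2 the changes were 0.15 for Pln, 0.10 for Ryr2, 0.20 for Casq2 and 0.03 for Hrc, again none called. The macrophage and leukocyte markers of the 72 h hearts summed to 6933 to 21240, against 6855 to 7475 in MCM, and no marker was called at 72 h.

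Among Asph probes, 7 had all 72 h hearts above all MCM hearts, as did 5.30% of all tested probes. The greatest of these differences was 0.78 ± 0.20 for ILMN_1235836, with 8.04, 7.85 and 7.37 at 72 h and 6.88, 7.09 and 6.94 in MCM (adjusted p = 0.288). The NM_133723 probe had 10.50, 9.84 and 10.54 and lay below the MCM hearts, a change of -0.51 ± 0.20 (adjusted p = 0.653). Calls at 72 h depended on the hearts and weights used. Without 72 h replicate 2, Atp2a2 probe ILMN_2450031 was lower by -0.56 (adjusted p = 0.00631). Without 72 h replicate 3, ILMN_1235836 was higher by 0.98 (adjusted p = 0.0440). With array weights 13 member probes were called, 4 lower and 9 higher, where 10.1% of all probes were called.

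Between the induced groups, 26 of 30 probes were lower at 1 week than at 72 h and none was higher, where 23.7% of all probes were lower and 20.9% higher. This difference uses no MCM mean, but its error comes from the fit over all arrays. With the 6 arrays of these 2 groups alone 23 of the 30 were called, where 37.6% of all probes were. These counts include probes that missed detection on 1 week arrays and were kept through other groups, which favours falls. Among the 18 member probes detected on all 12 arrays 15 were lower and none higher, where 48.8% of all such probes were called in either direction. Ryr2 ILMN_1244015 was detected on 2 of 3 arrays at 72 h and on none at 1 week, and was at least 1.39-fold lower. Its fitted difference had an adjusted p of 7.57e-05, and the bound was not tested. Pln differed by -1.43 ± 0.18 (adjusted p = 6.60e-05) and by -1.66 without 72 h replicate 2 (adjusted p = 8.36e-08). In Asph, 12 of 13 probes were lower at 1 week than at 72 h. Casq2 and Hrc were lower by 0.48 and 0.61, with hearts that overlapped through 72 h replicate 2, and by 0.70 and 0.89 without it. These calls and that of Casq1 were lost with the 2 groups alone (adjusted p 0.079 for Casq2, 0.1 for Casq1 and 0.0655 for Hrc), and Casq2 and Casq1 each lost theirs in 13 of 22 alternatives. Array background was low on the arrays of both times, 54.4 to 59.1 over the 6.

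The 2 kinds of uninduced adult heart differed in 5 of the 30 probes. Adult wildtype hearts were lower than MCM in 4 and higher in 1, where 3.67% and 3.23% of all probes were. Of the lower probes, ILMN_2776700 of Asph was detected on no adult wildtype array. Casq1 had 8.84 and 8.92 in adult wildtype, above all MCM hearts by a mean of 0.92 ± 0.18 (adjusted p = 0.00839), and the call was lost when either adult wildtype heart was left out (adjusted p 0.0667 and 0.0905). Jph2 by ILMN_2438153 had 11.05 and 10.90, below all MCM hearts by a mean difference of -0.85 ± 0.15 (adjusted p = 0.00445), and without adult wildtype replicate 2 the call was lost (adjusted p = 0.0705). The other 3 lower probes were of Asph (ILMN_2606990, ILMN_2610810 and ILMN_2776700), and each of these calls was lost when either adult wildtype heart was left out.

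Against adult wildtype in place of MCM, which shares the 1 week hearts with the comparison above, 15 probes were lower at 1 week and 1 was higher, where 25.2% and 22.6% of all probes were. This count also includes probes that missed detection on 1 week arrays and were kept through other groups. Among the 18 member probes detected on all 12 arrays 11 were lower and 1 higher, where 51.1% of all such probes were called in either direction. Pln was lower by 1.41 and Ryr2 (ILMN_1244913) by 0.80, beside 1.50 and 0.76 against MCM. Casq1 was lower by 1.35 (adjusted p = 0.000105) and Jph2 (ILMN_2438153) by 0.42 (adjusted p = 0.0343), beside 0.42 and 1.27 against MCM. The Jph2 call was lost when any 1 heart of either group was left out (adjusted p 0.0547 to 0.201). For Casq2 the difference was -0.19 ± 0.20 (95% interval -0.63 to 0.25, adjusted p = 0.467), so it was not called against this reference. The 1 higher probe was ILMN_1233759 of Asph, at 0.66 ± 0.18 (adjusted p = 0.00874, and 0.0573 without adult wildtype replicate 2, when the call was lost), while the NM_133723 probe of the same gene was lower by 2.34 ± 0.22 (adjusted p = 9.48e-06).

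In the embryonic heart most of these genes were below the adult level, by unequal amounts. Against adult wildtype, 21 of the 30 probes were lower in the E14 heart and none higher, where 26.2% of all probes were lower and 29.6% higher. E14 was 1 array, which the fit assumes to vary like the others. The count includes probes that missed detection in the E14 heart and were kept through other groups, which favours lower values there. The median difference over the 30 probes was -0.95, or -0.94 with 8 undetected probes set at their bounds, against 0.07 over all tested probes. For the 11 cardiomyocyte markers it was -1.13, and their part in the members' values was not tested. Hrc had 10.85 in the E14 heart against 14.35 and 14.48, a difference of -3.57 ± 0.28 (adjusted p = 6.00e-07). Pln had 12.02 against 14.25 and 14.13 (-2.17 ± 0.27, adjusted p = 2.31e-05), and Ryr2 by ILMN_1244913 had 11.59 against 13.93 and 13.82 (-2.28 ± 0.21, adjusted p = 2.19e-06). The other 3 Ryr2 probes were not detected in the E14 heart, and were lower there by at least 6.22-fold (ILMN_1242706), 1.66-fold (ILMN_1244015) and 2.24-fold (ILMN_1251989).

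The pump gene differed less: the 3 Atp2a2 probes were lower by 0.88 to 1.60. Casq2 was lower by 1.23 ± 0.27 (adjusted p = 0.00203), and Casq1, at 8.34 against 8.84 and 8.92, was not called (-0.54 ± 0.24, adjusted p = 0.0773). All 3 Jph2 probes were lower, 1 of them (ILMN_2628876) undetected in the E14 heart and lower by at least 2.01-fold, and 2 of 3 Srl probes by 1.50 and 1.66. The NM_133723 probe of Asph, at 11.26 and 11.35 in adult wildtype, was not detected in the E14 heart and was at least 30.3-fold lower there, a bound that was not tested. Of the 12 other Asph probes 5 were called lower, 1 of them (ILMN_2610012) detected in neither group. All 5 calls were lost when arrays were scaled to their medians (adjusted p 0.0586 to 0.14), which moved the median difference of all tested probes from 0.07 to 0.28.

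Partner genes of the SR, a list of 34 of which 24 had a tested probe, moved both ways at 1 week: 9 rose and 4 fell, with a median change of 0.18, where 24.9% of all tested probes rose and 27.9% fell. The calls of Jsrp1 and Ryr3 rest on probes dark in both groups. Itpr3, counted among the rises, was detected on 2 of 3 arrays at 1 week and on no MCM array. Bin1, which shapes the transverse tubules, had 7.69, 7.90 and 7.99 in MCM and 9.53, 9.43 and 9.61 at 1 week, a 3.17-fold rise (adjusted p = 8.20e-05). The 2 genes of the TRIC cation channels of the SR went opposite ways. Tmem38a, the form of striated muscle, fell 2.20-fold from 12.40, 12.18 and 12.31 to 11.13, 11.10 and 11.24 (adjusted p = 0.000634). Tmem38b, the widely expressed form, rose 2.31-fold from 10.57, 10.57 and 10.62 to 11.69, 11.75 and 11.94 (adjusted p = 3.83e-05).

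Further falls were those of the membrane adaptor Ank2, by 0.91 ± 0.17 (adjusted p = 0.000909) and of Jph1, a junctophilin of skeletal muscle, by 0.59 ± 0.14 (adjusted p = 0.00308). Further rises were those of Calu, a calcium-binding protein of the secretory pathway, by 0.86 ± 0.12, Fkbp1a, which encodes the channel-binding protein FKBP12, by 0.83 ± 0.12, and the phosphatase inhibitor gene Ppp1r1a by 0.67 ± 0.19 (adjusted p = 0.000113, 9.18e-05 and 0.0109). Sarcolipin (Sln), a pump inhibitor of the atria, had 13.34, 13.89 and 8.60 in MCM and 13.12, 13.01 and 12.49 at 1 week (0.93 ± 1.12, adjusted p = 0.511). MCM replicate 3 was the low heart for Sln, and the summed atrial markers ranged from 23320 to 146100 over the MCM hearts. At 72 h replicate 3 was also low for Sln, at 10.53 against 13.83 and 13.23. The atrial sum ranged from 35890 to 138700 over the 72 h hearts. Atp2a1, the pump of fast skeletal muscle, changed by -0.47 ± 0.19 (adjusted p = 0.0566), and Trdn, Fkbp1b and Ryr1 had no tested probe.

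**Figure D4:**
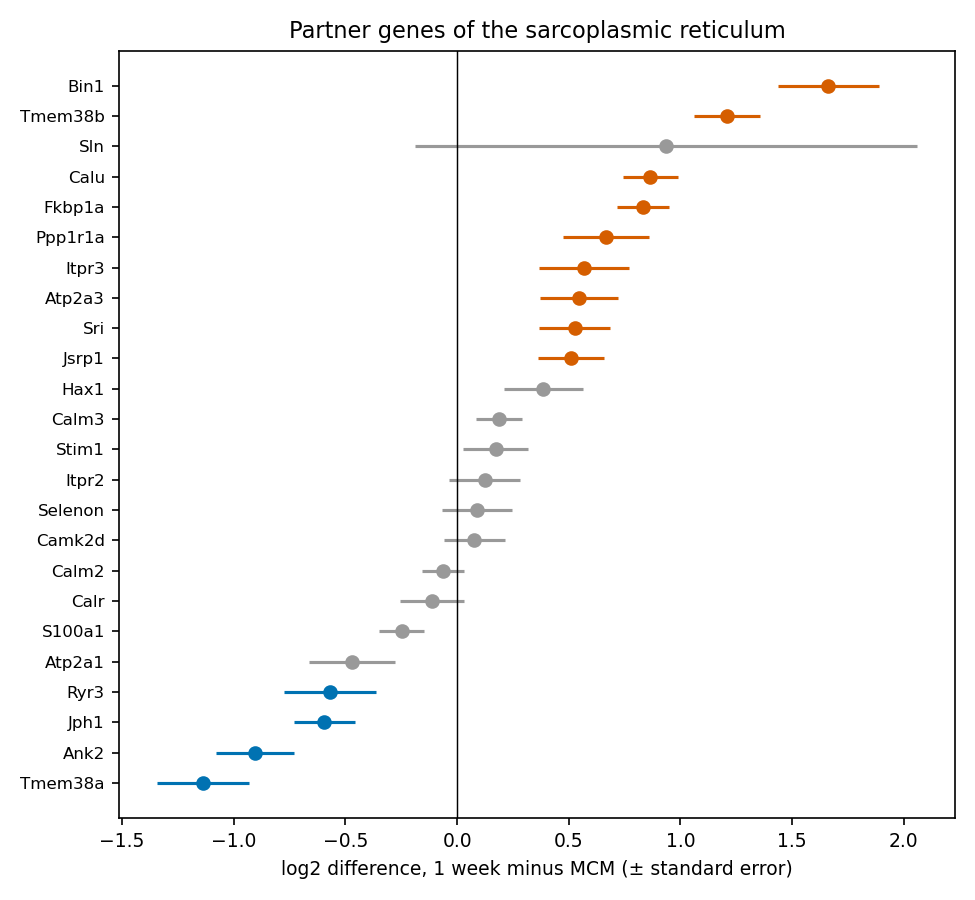
Log2 change at 1 week against MCM of 24 partner genes of the sarcoplasmic reticulum (points) with its standard error (lines; orange: rose, blue: fell, grey: not called). The changes run both ways, from -1.14 for Tmem38a to 1.66 for Bin1.

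At 72 h none of the 24 partners was called, with or without replicate 2. That heart had the highest Bin1 (8.61) and Tmem38b (11.12) and the lowest Tmem38a (11.68) and Ank2 (10.06) of its group. In the E14 heart 10 partners were higher and 8 lower than in adult wildtype, where 29.6% and 26.2% of all probes were. Tmem38a, Ank2 and Jph1 were lower there (-3.11, -2.15 and -1.40) and Bin1 and Fkbp1a higher (1.08 and 1.33), while Tmem38b, which rose at 1 week, was lower (-1.56).

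The other markers moved with the 1 week group as follows. Macrophage and leukocyte markers summed to 35800 to 41880 at 1 week, against 6855 to 7475 in MCM. Of 8 fibroblast markers 5 rose, and of 7 endothelial markers 3 fell and 1 rose. Of 6 smooth muscle and pericyte markers 2 fell and 1 rose, while their sum was 17340 to 34230 in MCM and 46480 to 54400 at 1 week. Of 8 atrial markers 3 fell. Among all tested probes 24.9% rose and 27.9% fell. The erythroid markers rose against MCM in 3 of 3. All 3 were also higher in adult wildtype than in MCM hearts, and none was called between 1 week and adult wildtype hearts. Their sum was 23140 to 37740 in MCM, 56470 to 59660 at 1 week and 66990 to 69850 in adult wildtype hearts. The part of these cells in the members' values was not tested.

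As a description of likeness, the 12-array log2 profile of each of 4 members was centred on its mean and compared with those of other genes by the root-mean-square difference. The nearest to Ryr2 (ILMN_1244913) were Etfrf1 (0.09), Ccng1 (0.10) and Sdhb (0.13), a subunit of respiratory complex II. The nearest to Pln were a second probe of Ccng1 (0.16), Asrgl1 (0.16) and Mccc2 (0.17). For Casq2 they were Crebl2 (0.15), Esrra (0.15), which encodes a nuclear receptor, and Dpysl4 (0.15). For Atp2a2 (ILMN_1245425), whose profile is nearly flat outside the E14 heart, they were Npr2, Popdc2 and Cd47 (0.10 each).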

How the data were processed

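Total RNA of 12 mouse hearts was read on Illumina bead arrays. Per the file headers, the deposited array files hold the mean bead intensity of each probe on a linear scale, with no background taken off, and a detection score from 0 to 1. The authors' deposited value table holds a normalized intensity per probe and array. The deposited program's mapping onto 100 quantiles of adult wildtype replicate 1 gave that table's values within 0.001 for 100% of probes, which settles its linear scale and links each probe to the platform annotation (34885 probes with 1 gene symbol, 18 with several, 10378 with none). Column medians were 129.5 to 129.8.

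From the array files, 1 minus the score served as detection p. Intensities were background-corrected with nec of limma 3.58.1 in R 4.3.3 (normal-exponential convolution, offset 16), quantile-normalized and put on the log2 scale. A probe was kept if each array of some group had a detection p below 0.01. All groups were fitted in a single limma model per probe (group means, eBayes with an intensity trend, 7 residual degrees of freedom), with Benjamini-Hochberg adjustment over kept probes and calls below 0.05. Differences between 2 probes of a gene were fitted the same way over all such pairs, but without the intensity trend. The number of arrays limits the precision. Where no array of a group detected a probe, the fold is a bound against the higher of its own value and the lowest detected signal per array. The adjusted p of such a probe is that of its fitted difference, and the bound was not tested. The fits were tested on simulated data with known changes.

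The 9 members, the partner list, the markers and the tests were chosen with earlier results of these data known. All members are named. Of the partners, up to 8 called genes with the largest change at 1 week are named, and Trdn, Fkbp1b, Sln, Atp2a1, Ryr1 and Jph1 in any case; each partner or marker was represented by its brightest kept probe on average. Replicate numbers are not given as pairing hearts, and same-numbered hearts of different groups deviated together at r from -0.05 to 0.28, so hearts were not paired. Alternatives were other background offsets and corrections, the authors' values, scaling, filters, array weights, fits on fewer arrays and the leaving out of each heart. Probe sequences and a genome were not used here.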

Additional observations from a re-analysis of the deposited data

Results flagged for a closer look

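The changes of 26 probes differed between the 2 times after induction, by the test of 1 week against 72 h hearts (limma, adjusted p 3.89e-06 to 0.0489). Time and number of tamoxifen injections cannot be told apart here. For the release channel gene Ryr2 the log2 differences, 1 week minus 72 h, were -0.67 and -1.39 by the 2 probes detected in both groups. Ryr2 ILMN_1244015 was detected on no 1 week array and was at least 1.39-fold lower there, and ILMN_1251989, detected in neither group, has no fold. The Atp2a2 probe ILMN_1239742 differed by -0.46 and Pln by -1.43. The calcium-binding genes Casq2, Casq1 and Hrc differed by -0.48, -0.44 and -0.61, and 2 Srl probes by -0.73 and -1.48. The calls of Casq2, Casq1 and Hrc were lost in 13, 13 and 5 of 22 alternatives, and without 72 h replicate 1 the Casq1 difference was -0.27 (adjusted p = 0.196). The Jph2 probes differed by -0.99, -0.74 and -1.01. The NM_133723 probe of Asph differed by -1.33, and 10 of the 12 other Asph probes by -0.60, -1.01, -1.25, -1.12, -0.89, -0.83, -0.98, -1.27, -1.25 and -0.999. A further Asph probe, ILMN_2610012, was detected on no 1 week array and was at least 2.06-fold lower there.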

How the results depend on the processing

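No call of a member probe changed direction under any alternative run. At 1 week against MCM the 24 calls became 14 among the 18 member probes detected on all 12 arrays and 8 of 9 with 1 probe per gene. Fewer probes were tested there, and 56.7% and 53.8% of all of them were called. Leaving out an MCM or induced heart gave 21 to 24, where 44.8% to 58.3% of all probes were called. At 72 h the 0 calls became 13 with array weights, and 0 to 1 with a heart left out; the cause was not tested. For 1 week against 72 h, 26 became 15 among probes detected on all arrays and 7 with 1 probe per gene, where 48.8% and 45.4% of all probes were called. For adult wildtype against MCM, 5 became 3 without the filter, 2 with 1 probe per gene, 10 with array weights, 8 with the 2 groups alone and 0 to 8 with a heart left out. The shares of all probes called in that comparison were 2.91% without the filter, 5.74% with 1 probe per gene, 18.9% with array weights and 11.3% with the 2 groups alone. With 1 probe per gene only 9 member probes were tested in each comparison, and without the filter 33. For 1 week against adult wildtype, 16 of 30 became 7 of 9 with 1 probe per gene, where 48.9% of all probes were called. For E14, which is 1 array, fewer member probes were called with median scaling. The 40 unequal pairs among all 93 pairs of member probes became 26 to 38 with a heart left out, fewest without 1 week replicate 2. The Pln minus Atp2a2 change at 1 week was -1.04 and -0.999 with the other pump probes, and 0.38 at 72 h with ILMN_2450031. With the replicate number as a block, calls were 24, 0, 26, 16 and, for adult wildtype against MCM, 3. In the same order 52.6%, 0.267%, 44.7%, 47.7% and 5.84% of all probes were called. The replicate numbers do not pair the hearts, and E14 has no number. Over the alternatives 23.1% to 63.1% of all probes were called at 1 week and 0.113% to 10.1% at 72 h. The weakest calls at 1 week were those of Casq2, Casq1 and Asph ILMN_2609988 (adjusted p up to 0.142, 0.117 and 0.127 under the alternatives that lost them). For probes near background, signal over background limits what folds can be read.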
